A study of Mus musculus with 8 samples.

Results

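The genes described here are the matrix metalloproteinases (MMPs), the ADAMTS proteases, the ADAMTS-like proteins (ADAMTSL) and the tissue inhibitors of metalloproteinases (TIMPs) in inflamed mouse skin. Members were taken by the pattern of the gene symbol, and 48 of the 25378 genes in the table matched: 20 MMPs, 19 ADAMTS genes, 5 ADAMTSL genes and 4 TIMPs. Their messenger RNA was measured by bulk RNA sequencing of back skin from 8 wild type C57BL/6 mice, all female and 6 weeks of age. In the propionic acid group (n = 4), 5 nmol of MC903 was put on the back for 10 days, and 1 h after each dose came propionic acid at 1 mM. Propionic acid is a short-chain fatty acid of bacterial fermentation. In the control group (n = 4), mice had the same MC903 and then a control treatment whose content is not stated in the labels. MC903, or calcipotriol, acts on the vitamin D receptor and brings on dermatitis with features of atopic dermatitis, so both groups had lesions and no untreated skin is compared here. Skin was taken on day 11, and the comparison asks how the lesions of the 2 groups differ.

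MMPs are zinc-dependent proteases, most of them secreted as inactive precursors, which cut collagens, other matrix proteins and many signalling molecules. TIMPs bind the active site of MMPs and block them, and TIMP3 also blocks several ADAMTS proteases. ADAMTS proteases are secreted enzymes with thrombospondin repeats that trim procollagens and cut proteoglycans such as versican and aggrecan, and the ADAMTSL proteins share those repeats but lack the protease part. In skin these genes are known from remodelling of the dermis, from wound healing and from inflammation, and fibroblasts, keratinocytes and infiltrating leukocytes each make their own set.

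Depth was nearly equal, with 39034193 to 40194111 reads recovered per library from the deposited FPKM values (FPKM divides the fragments of a gene by its length and by the depth of the library). The samples carried the markers of skin. The 6 keratinocyte markers summed to 5965 to 8890 FPKM in propionic acid skin and 6103 to 8507 FPKM in control skin. The 6 fibroblast markers summed to 1960 to 3244 FPKM in propionic acid skin and 1707 to 3764 FPKM in control skin. Adipocyte markers were high as well, and each of the 5 averaged more in propionic acid skin, with sums of 839.9 to 1768 FPKM against 525.7 to 1034 FPKM in control skin. The 6 skeletal muscle markers summed to 3057 to 5970 FPKM in propionic acid skin and 3225 to 4821 FPKM in control skin. On the first principal component, which held 38.9% of the variance of the tested genes, the propionic acid mice stood at -11.8 to 26.0, control replicates 1 and 3 at -31.8 and -26.7, and the other controls at 0.9 and 16.3. In bulk tissue, fewer cells of a type and less RNA per cell cannot be told apart.

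A few genes made up most of the expression. Averaged over all 8 mice, 3 members reached 100 FPKM or more: Timp2, Mmp14 and Mmp2, which are the parts of the surface complex in which MMP14 activates the MMP2 precursor with the help of TIMP2. A further 11 members averaged 10 to under 100 FPKM, 16 averaged 1 to under 10, 9 averaged 0.1 to under 1, and 9 were below 0.1. Mmp2 and Mmp14 together gave 49.6% to 67.1% of the summed MMP level in propionic acid skin, against 67.2% to 76.5% in control skin. These ranges nearly touched, at 67.1% in propionic acid replicate 3 and 67.2% in control replicate 3. The share also depends on the levels of the other MMPs in the sum. Timp2 gave 65.1% to 71.1% of the summed TIMP level in propionic acid skin and 61.9% to 73.2% in control skin. The ratio of summed MMP to summed TIMP FPKM was 1.43 to 1.96 in propionic acid skin and 1.41 to 1.86 in control skin, so these sums overlapped.

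**Figure D1:**
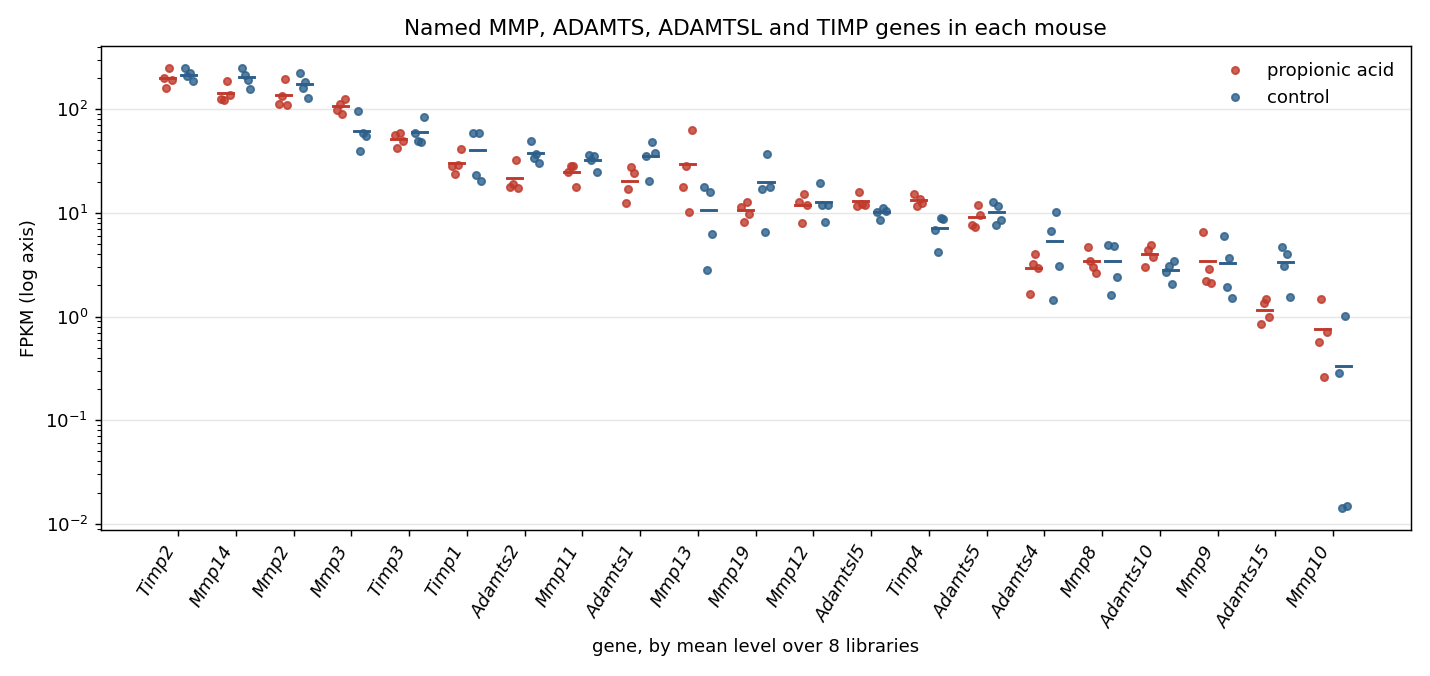
FPKM on a log axis for the 21 genes named by rule, ordered by mean level, with 1 point per mouse, propionic acid (red) left of control (blue), and a bar at each group's mean. Timp4 and Adamtsl5 lie higher and Adamts15 lower in all propionic acid mice than in any control mouse, and for the other genes shown the groups overlap.

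The test took genes that reached 1 FPKM in 4 libraries or more, which left 30 of the 48 members among 12598 genes. No member passed an adjusted p of 0.05, and the smallest limma adjusted p was 0.417 (Timp4). Over all tested genes 0 passed (0% of 12598) with limma on log2(FPKM + 1) and 0 with limma-voom on recovered reads, while 792 and 749 had an unadjusted p under 0.05. By that unadjusted measure, 8 of the 30 tested members (26.7%) were past 0.05, where 6.29% of all tested genes were. Of these 8, 4 had higher values with propionic acid (Mmp3, Timp4, Adamtsl5 and Adamts10; 4.07% of all genes) and 4 had lower values (Mmp14, Adamts1, Adamts2 and Adamts15; 2.21% of all genes). The split of all such genes, 513 higher and 279 lower, was 416 and 369 with median-of-ratios scaling. The median log2 fold change was -0.12 over the tested members, and 0.01 over all tested genes. It was above 0 for 11 members and below 0 for 19, where 51.7% and 48.3% of all tested genes were.

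The groups did not overlap for 3 of the 30 tested members, where this held for 3.16% of all tested genes: 2 members were higher with propionic acid (2.06% of all tested genes) and 1 was lower (1.1% of all tested genes). Without propionic acid replicate 2, 5 members had an unadjusted p under 0.05, beside 6.22% of all tested genes. The number was 11 without propionic acid replicate 3 (7.85% of all genes), 11 without control replicate 2 (9.83%) and 7 without control replicate 3 (3.51%). Without any other single mouse it was between 6 and 8 (4.16% to 7.17% of all genes). Control replicates 1 and 3 had the lowest values on the first principal component (-31.8 and -26.7), and a fit without both left only control replicates 2 and 4. No pair of propionic acid mice was left out in this way. Without both control replicates 1 and 3 the number of members was also 8, but with 6 higher and 2 lower, and 505 genes (4.01%) in all. Of those 8, 5 were among the 8 from all mice (Mmp3, Timp4 and Adamtsl5, higher, and Adamts2 and Adamts15, lower), and Adamtsl4, Mmp13 and Mmp8, higher, were not. Labels call the samples biological replicates without naming the animals, so each sample was taken as 1 mouse. The p-values set the difference between groups against the spread between these samples.

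**Figure D2:**
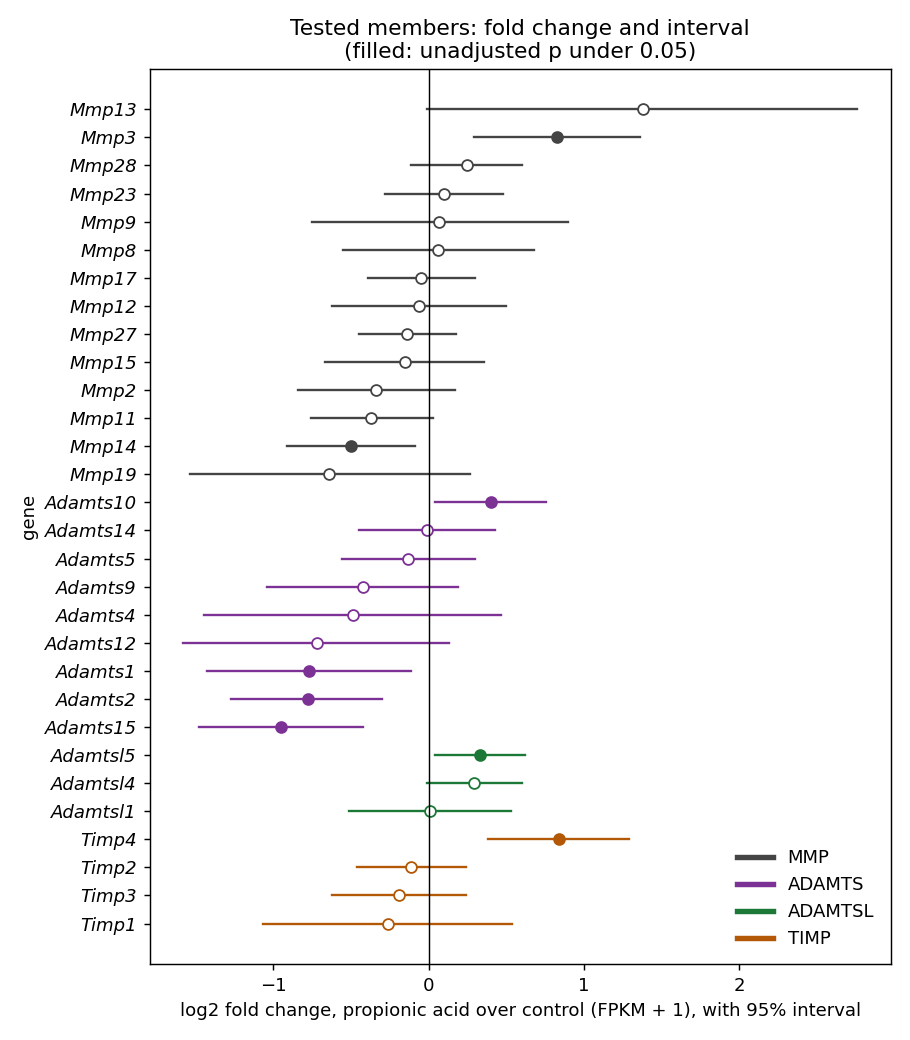
Log2 fold change of propionic acid over control on the log2(FPKM + 1) scale for the 30 tested members, by family, with 95% intervals from limma without adjustment for multiple testing; filled points have an unadjusted p under 0.05. Values run from -0.95 (Adamts15) to 1.38 (Mmp13), and 8 of the 9 ADAMTS genes lie below 0.

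Within a stretch of chromosome 9 lie 8 MMP genes, in the order Mmp13, Mmp12, Mmp1b, Mmp3, Mmp10, Mmp8, Mmp27 and Mmp20 over 402.5 kb (GENCODE vM21 on GRCm38, the assembly also called mm10). Their start regions are shown because Mmp13 and Mmp3 lie here, which with Timp4 had the 3 highest log2 fold changes of the tested members, as does Mmp10. Mmp12 and Mmp8, whose means hardly differed, are shown beside them. The Mmp12 start shown holds the same motifs as those 3 genes, while its other start holds neither, and Mmp8 holds 1 of them. The Timp4 start region, on chromosome 6 and not shown, holds neither. The windows to show were chosen with the fold changes known. Each sequence runs from 250 bases before the RefSeq gene start to 50 bases after it (RefSeq, GRCm38.p6), on the strand of the gene. The windows are chr9:7272264-7272563 for Mmp13, chr9:7445572-7445871 for Mmp3, chr9:7502092-7502391 for Mmp10, chr9:7347124-7347423 for the second of 2 Mmp12 starts and chr9:7558179-7558478 for Mmp8, all on the plus strand. Capitals mark TGANTCA (N is any base), taken here as the letters of an AP-1 site, and TATAAA, the letters of a TATA box, on either strand. In the AP-1 letters shown, N is C or G.
Mmp13: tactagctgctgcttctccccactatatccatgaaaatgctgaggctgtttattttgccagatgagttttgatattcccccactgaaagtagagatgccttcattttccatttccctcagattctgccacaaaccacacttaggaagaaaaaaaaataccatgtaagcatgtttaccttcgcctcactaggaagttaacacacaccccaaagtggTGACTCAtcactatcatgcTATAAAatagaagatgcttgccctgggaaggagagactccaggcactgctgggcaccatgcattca
Mmp3: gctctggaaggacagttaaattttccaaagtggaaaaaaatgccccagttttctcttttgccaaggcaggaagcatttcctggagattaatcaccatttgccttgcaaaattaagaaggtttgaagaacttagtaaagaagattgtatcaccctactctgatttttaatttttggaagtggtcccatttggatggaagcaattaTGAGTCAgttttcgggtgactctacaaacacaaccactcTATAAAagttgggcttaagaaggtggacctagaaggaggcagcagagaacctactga
Mmp10: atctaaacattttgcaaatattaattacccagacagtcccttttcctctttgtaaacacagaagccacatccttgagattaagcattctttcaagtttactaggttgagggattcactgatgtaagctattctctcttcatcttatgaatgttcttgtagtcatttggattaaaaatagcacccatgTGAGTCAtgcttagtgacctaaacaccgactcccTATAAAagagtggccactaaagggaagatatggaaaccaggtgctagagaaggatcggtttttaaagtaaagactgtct
Mmp12: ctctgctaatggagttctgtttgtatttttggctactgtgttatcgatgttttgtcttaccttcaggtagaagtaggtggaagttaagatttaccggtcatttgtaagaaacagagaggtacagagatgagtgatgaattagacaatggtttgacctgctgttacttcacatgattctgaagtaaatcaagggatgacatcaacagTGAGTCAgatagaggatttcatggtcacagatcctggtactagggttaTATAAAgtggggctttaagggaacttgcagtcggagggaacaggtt
Mmp8: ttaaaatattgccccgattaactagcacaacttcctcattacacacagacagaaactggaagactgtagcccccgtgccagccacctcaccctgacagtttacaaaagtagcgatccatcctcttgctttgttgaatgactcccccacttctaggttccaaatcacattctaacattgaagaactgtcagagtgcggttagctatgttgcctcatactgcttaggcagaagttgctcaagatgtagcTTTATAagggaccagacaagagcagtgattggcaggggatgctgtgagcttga

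The AP-1 letters begin 35 bases before the start of Mmp13, 46 before that of Mmp3 and 63 before that of Mmp10, and each of these genes also has the TATA letters in the window. Mmp12, with a log2 fold change of -0.06, has the AP-1 letters beginning 44 bases before the start shown and the TATA letters after it. Mmp1b and Mmp20 hold both motifs too, and in Mmp20 the middle base of the AP-1 letters is A. Mmp1b, at 11 recovered reads or fewer, had a higher mean with propionic acid, and Mmp20 had 1 read in 1 control library. The mean of Mmp12 was not higher, but its other start holds neither motif. Each FPKM value covers the whole gene, so which Mmp12 start was used is not known. Whether the letters bear on the level of any of these genes was not tested. In Mmp8 the capitals are TATA letters on the minus strand, and the AP-1 letters are not in this window. AP-1 is the transcription factor family of Fos and Jun proteins, long known to act on MMP promoters. Among 35 windows of the 33 members in the RefSeq table, 6 (17.1%) held TGANTCA, against 7.81% of all 32851 windows, and all 6 belong to the chromosome 9 genes (Mmp13, Mmp3, Mmp10, Mmp12, Mmp1b and Mmp20), with 0 among the 26 windows of other members. The TATA letters were in 9 member windows (25.7%, against 13.6% of all windows), 7 of them in this cluster. The ETS letters AGGAAG, on either strand, were in 12 member windows (34.3%, against 35.4%). The PPAR direct repeat was in 0 member windows and in 0.0396% of all windows. A match of letters is a description of the window and does not show binding.

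Mmp3, the stromelysin that cuts proteoglycans, laminin and other MMP precursors, was the most abundant gene of the cluster. It had 99.0, 111, 89.9 and 126 FPKM in the 4 propionic acid mice, against 95.4, 39.2, 59.5 and 54.6 FPKM in the 4 control mice. Propionic acid replicate 3 was the lowest of its group and lay below control replicate 1, so the groups overlapped by that pair alone. The means were 106.5 ± 15.6 and 62.2 ± 23.8 FPKM (SD, n = 4 each) in propionic acid and control skin, and the log2 fold change was 0.83 with an SE of 0.24 (95% interval 0.29 to 1.36; limma unadjusted p = 0.00673, adjusted p = 0.508). With control replicate 1 left out the log2 fold change was 1.054, with control replicate 2 left out it was 0.634, and with control replicates 1 and 3 left out it was 1.173.

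Mmp13, the main collagenase of mouse tissue, had 17.9, 28.4, 10.1 and 63.1 FPKM in propionic acid mice, against 17.9, 2.80, 15.8 and 6.18 FPKM in control mice. The spread within each group was wide and the groups overlapped. The means were 29.9 ± 23.4 FPKM in propionic acid skin and 10.7 ± 7.33 FPKM in control skin, with a log2 fold change of 1.38 and an SE of 0.62 (95% interval -0.01 to 2.76; limma unadjusted p = 0.0507, adjusted p = 0.795). The log2 fold change was 0.928 without propionic acid replicate 4, which had the highest value, and 0.931 without control replicate 2, which had the lowest. It was 2.264 without control replicates 1 and 3.

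Mmp10, another stromelysin, known from keratinocytes at wound edges, stayed under the filter. Its levels were 0.562, 1.48, 0.262 and 0.702 FPKM in propionic acid mice (39, 101, 18 and 49 recovered reads), against 0.287, 0.0144, 1.01 and 0.0147 FPKM in control mice (20, 1, 70 and 1 recovered reads). All 4 propionic acid mice had at least 18 reads, while control replicates 2 and 4 had 1 read each, and the other 2 controls lay within the range of the propionic acid mice. Without the filter, its log2 fold change was 0.41 with a limma unadjusted p of 0.165. In the same 2 controls Mmp13 was also at its lowest.

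Of the neighbouring genes, Mmp12, Mmp8 and Mmp27 differed by less than the spread between mice. Mmp12, the elastase of macrophages, had 12.6, 8.05, 15.4 and 12.0 FPKM in propionic acid mice and 19.2, 11.8, 8.18 and 12.0 FPKM in control mice, a log2 fold change of -0.06 (95% interval -0.62 to 0.50). Mmp8, the collagenase of neutrophils, had 4.68, 3.45, 3.01 and 2.63 FPKM in propionic acid mice and 4.94, 1.62, 4.82 and 2.40 FPKM in control mice, a log2 fold change of 0.06 (-0.55 to 0.68). Both ranges overlapped almost wholly. Mmp27 averaged 4.49 ± 0.617 FPKM in propionic acid skin and 5.06 ± 0.927 FPKM in control skin. Mmp1b averaged 0.0884 FPKM in propionic acid skin and 0.0566 FPKM in control skin, with at most 11 recovered reads in a library, and Mmp20, an enzyme of tooth enamel, had 1 read in 1 control library and 0 in the others, which is at or near the floor. Exons of Mmp1b and Mmp12 share 157 bases on opposite strands, and the strand setting of the counting is not given in the sources used here.

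**Figure D3:**
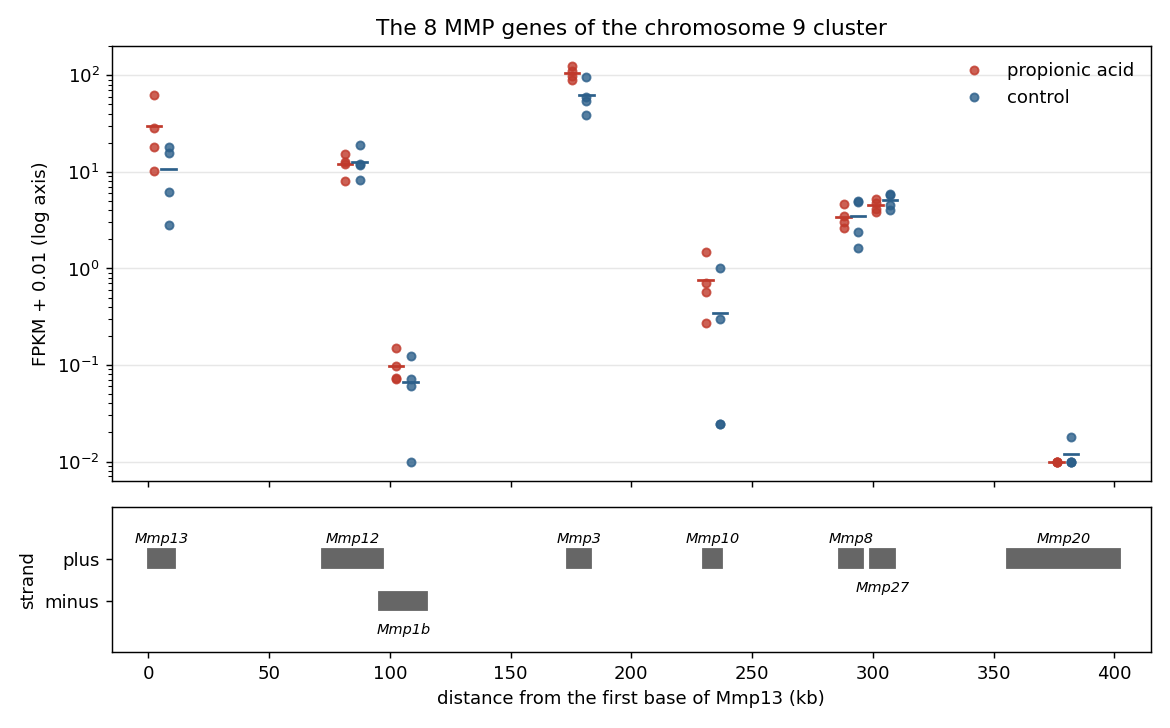
Upper part: FPKM plus 0.01 on a log axis for the 8 MMP genes of the chromosome 9 cluster, 1 point per mouse, propionic acid (red) left of control (blue), with a bar at the mean. Lower part: the genes to scale by strand, at their distance from the start of Mmp13. Mean levels of Mmp13, Mmp3 and Mmp10 in propionic acid skin are 2.80, 1.71 and 2.27 times those in control skin, but the groups overlap for each. The values of Mmp13 and Mmp10 also spread widely between mice. Mean levels of Mmp12, Mmp8 and Mmp27 are 0.938, 0.9992 and 0.8873 times those in control skin.

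Mmp14, the membrane-bound protease that activates the MMP2 precursor and cuts fibrillar collagen at the cell surface, had lower values on average in propionic acid skin. It had 125, 121, 187 and 137 FPKM in propionic acid mice, against 249, 213, 190 and 157 FPKM in control mice. The groups overlapped because propionic acid replicate 3 lay above control replicate 4. The means were 142.5 ± 30.1 FPKM in propionic acid skin and 202.2 ± 38.9 FPKM in control skin, with a log2 fold change of -0.50 and an SE of 0.18 (95% interval -0.91 to -0.09; limma unadjusted p = 0.0217, adjusted p = 0.732). The log2 fold change was -0.639 without propionic acid replicate 3 and -0.378 without control replicates 1 and 3.

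Mmp2, the gelatinase that MMP14 activates, had 111, 135, 197 and 110.5 FPKM in propionic acid mice and 222, 159.9, 183 and 128 FPKM in control mice. Its log2 fold change was -0.34 (95% interval -0.84 to 0.17; limma adjusted p = 0.85), and in each group the mouse with the highest Mmp2 also had the highest Mmp14. It was -0.519 without propionic acid replicate 3 (limma unadjusted p = 0.025), -0.208 without control replicate 1 and -0.090 without control replicates 1 and 3. Mmp9, the gelatinase stored by neutrophils and also made by keratinocytes, had 6.56, 2.21, 2.85 and 2.11 FPKM in propionic acid mice and 5.92, 1.94, 3.64 and 1.51 FPKM in control mice. Its highest value was in propionic acid replicate 1, where the sum of the 6 neutrophil markers was also highest (520.9 FPKM, against 84.14 to 209.3 in the rest of that group and 132.8 to 490.4 in control skin). In control skin the peaks fell in different mice. Mmp9 was highest in control replicate 1, with a neutrophil sum of 344.4 FPKM, and the sum was highest in control replicate 3, where Mmp9 had 3.64 FPKM. The part of neutrophil content in the Mmp9 level was not tested.

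The other tested MMPs did not pass 0.05 before adjustment. Mmp11, a stromelysin of stromal cells, averaged 24.8 ± 5.05 FPKM in propionic acid skin and 32.1 ± 5.25 FPKM in control skin, a log2 fold change of -0.37 (95% interval -0.76 to 0.03). Mmp19, expressed in dermal vessels and keratinocytes, averaged 10.5 ± 2.02 FPKM in propionic acid skin and 19.7 ± 12.7 FPKM in control skin, where control replicate 3 had 37.1 FPKM. The Mmp19 log2 fold change of -0.64 (-1.54 to 0.27) was -1.045 without control replicate 2 (limma unadjusted p = 0.0039), -0.267 without control replicate 3 and -0.064 without control replicates 1 and 3. Mmp28, an MMP of resting keratinocytes known as epilysin, averaged 3.67 ± 0.625 and 2.96 ± 0.736 FPKM in propionic acid and control skin. Mmp15, Mmp17 and Mmp23 had log2 fold changes of -0.15, -0.05 and 0.10. Exons of Mmp19 share 789 bases with Tmem198b on the opposite strand, 22.3% of its exon length.

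Among ADAMTS genes, 8 of the 9 tested had a lower mean log2 value in propionic acid skin, as did 48.3% of all tested genes. The median log2 fold change of the 9 was -0.49. Adamts15, which cuts versican and aggrecan, had the largest negative value of all tested members. It had 0.839, 1.36, 1.47 and 0.981 FPKM in propionic acid mice, against 4.66, 3.08, 4.03 and 1.56 FPKM in control mice. The groups did not overlap, but control replicate 4 lay close above the propionic acid mice. The means were 1.16 ± 0.302 FPKM in propionic acid skin and 3.33 ± 1.35 FPKM in control skin, with a log2 fold change of -0.95 and an SE of 0.24 (95% interval -1.48 to -0.42; limma unadjusted p = 0.00268, adjusted p = 0.431). At this level the pseudocount of 1 shrinks the fold change, which was -1.369 with a pseudocount of 0.1 FPKM and -1.446 with limma-voom on recovered reads. It was -0.590 without control replicates 1 and 3.

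Adamts2, which removes the amino-terminal propeptide of procollagen and so allows collagen fibres to form, was the most abundant ADAMTS gene. It had 17.9, 19.0, 32.6 and 17.4 FPKM in propionic acid mice, against 49.3, 33.6, 37.3 and 30.0 FPKM in control mice. Without propionic acid replicate 3, the groups would not have overlapped. The means were 21.7 ± 7.28 FPKM in propionic acid skin and 37.5 ± 8.37 FPKM in control skin, with a log2 fold change of -0.78 and an SE of 0.22 (95% interval -1.27 to -0.30; limma unadjusted p = 0.00529, adjusted p = 0.488). Adamts14, which does the same work on procollagen, averaged 1.295 ± 0.476 FPKM in propionic acid skin and 1.32 ± 0.486 FPKM in control skin, a log2 fold change of -0.01 (-0.45 to 0.43).

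Adamts1, a protease of versican and aggrecan that inflammation is known to induce, had 12.4, 17.1, 27.8 and 24.5 FPKM in propionic acid mice, against 35.6, 20.5, 48.3 and 37.7 FPKM in control mice. Control replicate 2 lay within the range of the propionic acid mice, and the other controls above it. The log2 fold change was -0.77 with an SE of 0.29 (95% interval -1.43 to -0.11; limma unadjusted p = 0.027, adjusted p = 0.754), and it ranged from -1.006 to -0.565 with single mice left out. It was -0.492 without control replicates 1 and 3.

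The aggrecanases Adamts4 and Adamts5 did not separate. Adamts4 had 1.65, 3.20, 4.02 and 2.93 FPKM in propionic acid mice and 6.75, 1.44, 10.1 and 3.04 FPKM in control mice, so that the higher control mean came from control replicates 1 and 3. Without these 2 the log2 fold change of -0.49 was 0.292, and without control replicate 2 it was -0.871 (limma unadjusted p = 0.0322). Adamts5 averaged 9.13 ± 2.08 FPKM in propionic acid skin and 10.1 ± 2.45 FPKM in control skin, a log2 fold change of -0.13 (95% interval -0.56 to 0.30), which was 0.141 without control replicates 1 and 3. Adamts9, a versican protease, and Adamts12, a protease of cartilage oligomeric matrix protein, had log2 fold changes of -0.42 and -0.72, with intervals of -1.04 to 0.19 and -1.58 to 0.13.

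Adamts10, a protein that binds fibrillin microfibrils and has little protease activity, was the 1 gene of the 9 tested ADAMTS genes with a higher mean log2 value. It had 3.03, 4.42, 4.87 and 3.72 FPKM in propionic acid mice, against 2.68, 3.05, 2.04 and 3.43 FPKM in control mice. Propionic acid replicate 1 lay below control replicates 2 and 4. The log2 fold change was 0.40 with an SE of 0.16 (95% interval 0.04 to 0.76; limma unadjusted p = 0.0342, adjusted p = 0.77), and 0.227 without control replicates 1 and 3.

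The 3 tested ADAMTSL genes had log2 fold changes of 0.01 to 0.33. Adamtsl5, a fibrillin-binding protein, had 11.5, 16.0, 12.3 and 11.9 FPKM in propionic acid mice, against 10.2, 8.56, 11.2 and 10.3 FPKM in control mice. The groups did not overlap, though 11.2 FPKM in control replicate 3 lay near 11.5 FPKM in propionic acid replicate 1. Its log2 fold change was 0.33 with an SE of 0.13 (95% interval 0.04 to 0.62; limma unadjusted p = 0.0318, adjusted p = 0.77), and 0.224 without propionic acid replicate 2. Adamtsl4, which is needed for the fibrillin fibres that hold the eye lens, averaged 6.35 ± 0.998 FPKM in propionic acid skin and 4.98 ± 0.681 FPKM in control skin (log2 fold change 0.29, 95% interval -0.01 to 0.60).

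Timp4, the TIMP with the most restricted tissue distribution and known from fat, heart and muscle, had the smallest p of the members. It had 15.3, 11.7, 13.5 and 12.4 FPKM in propionic acid mice, against 6.78, 4.22, 8.98 and 8.73 FPKM in control mice. All propionic acid mice lay above all control mice. The means were 13.2 ± 1.59 FPKM in propionic acid skin and 7.18 ± 2.20 FPKM in control skin, with a log2 fold change of 0.84 and an SE of 0.20 (95% interval 0.38 to 1.29; limma unadjusted p = 0.00227, adjusted p = 0.417). It ranged from 0.636 to 0.948 with single mice left out. All 5 adipocyte markers also averaged more in propionic acid skin, and none was at 0 in all mice. The lipid droplet gene Cidec did not overlap between groups, at 213, 121, 212 and 228.5 FPKM in propionic acid mice and 103, 79.5, 103 and 78.2 FPKM in control mice. Adipoq, Plin1, Lep and Fabp4 overlapped. Among control mice the order differed: replicate 1 had the highest adipocyte sum (1034 FPKM) but replicate 3 the highest Timp4. Skeletal muscle markers differed in both directions: Ckm averaged 975.3 FPKM in propionic acid skin and 476.5 FPKM in control skin, Myh4 222.9 FPKM in propionic acid skin and 24.7 FPKM in control skin, and Myh1 139.5 FPKM in propionic acid skin and 417.1 FPKM in control skin, each with no overlap. The part of fat or muscle content in the Timp4 level was not tested.

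The other TIMPs were far more abundant and did not separate. Timp2 had 201, 159.8, 250.1 and 192 FPKM in propionic acid mice and 247, 209, 221 and 185 FPKM in control mice, a log2 fold change of -0.11 (95% interval -0.46 to 0.24). Timp3, which stays bound to the matrix, averaged 51.6 ± 7.65 FPKM in propionic acid skin and 60.2 ± 17.1 FPKM in control skin, a log2 fold change of -0.19 (-0.62 to 0.24). Control replicate 4 had 84.6 FPKM, and with it left out the Timp3 value was -0.018; with propionic acid replicate 2 left out it was -0.098. Exons of Timp3 share 1733 bases with Syn3 on the opposite strand, 21.3% of its exon length. Timp1, the TIMP that inflammation is best known to induce, had 28.2, 23.6, 29.2 and 41.3 FPKM in propionic acid mice and 59.0, 23.4, 59.4 and 20.5 FPKM in control mice. Control replicates 1 and 3 stood at more than any propionic acid mouse and the other controls at less, and without those 2 the Timp1 log2 fold change of -0.26 was 0.435. With single mice left out it ranged from -0.525 to -0.028.

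Many members followed the same mice. Propionic acid replicate 3 had the highest value of its group for 22 of the 30 tested members, and control replicate 1 the highest of its group for 21. Control replicate 2 was the lowest of its group for 14 members and propionic acid replicate 2 for 11. These counts were not made over all tested genes, so whether they are particular to the members is not known. Propionic acid replicate 3 and control replicate 1 also had the lowest FPKM sums over all genes in their groups, at 490190.7 and 486414.4. In these 2 high mice the fibroblast marker sums were also the highest of their groups, at 3244 FPKM in propionic acid replicate 3 and 3764 FPKM in control replicate 1, as were the endothelial sums, at 140.3 and 150.8 FPKM. The macrophage sums were 1458 and 1786 FPKM in the same mice, the highest of each group, but propionic acid replicate 4 was close at 1454 FPKM. All 6 macrophage markers averaged less in propionic acid skin. The keratinocyte, neutrophil, mast cell and skeletal muscle sums were highest in other mice of both groups. Within its group, the adipocyte sum was highest in control replicate 1 but not in propionic acid replicate 3, and the reverse held for the hair follicle sum. Whether cell content accounts for the levels of the members was not tested.

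**Figure D4:**
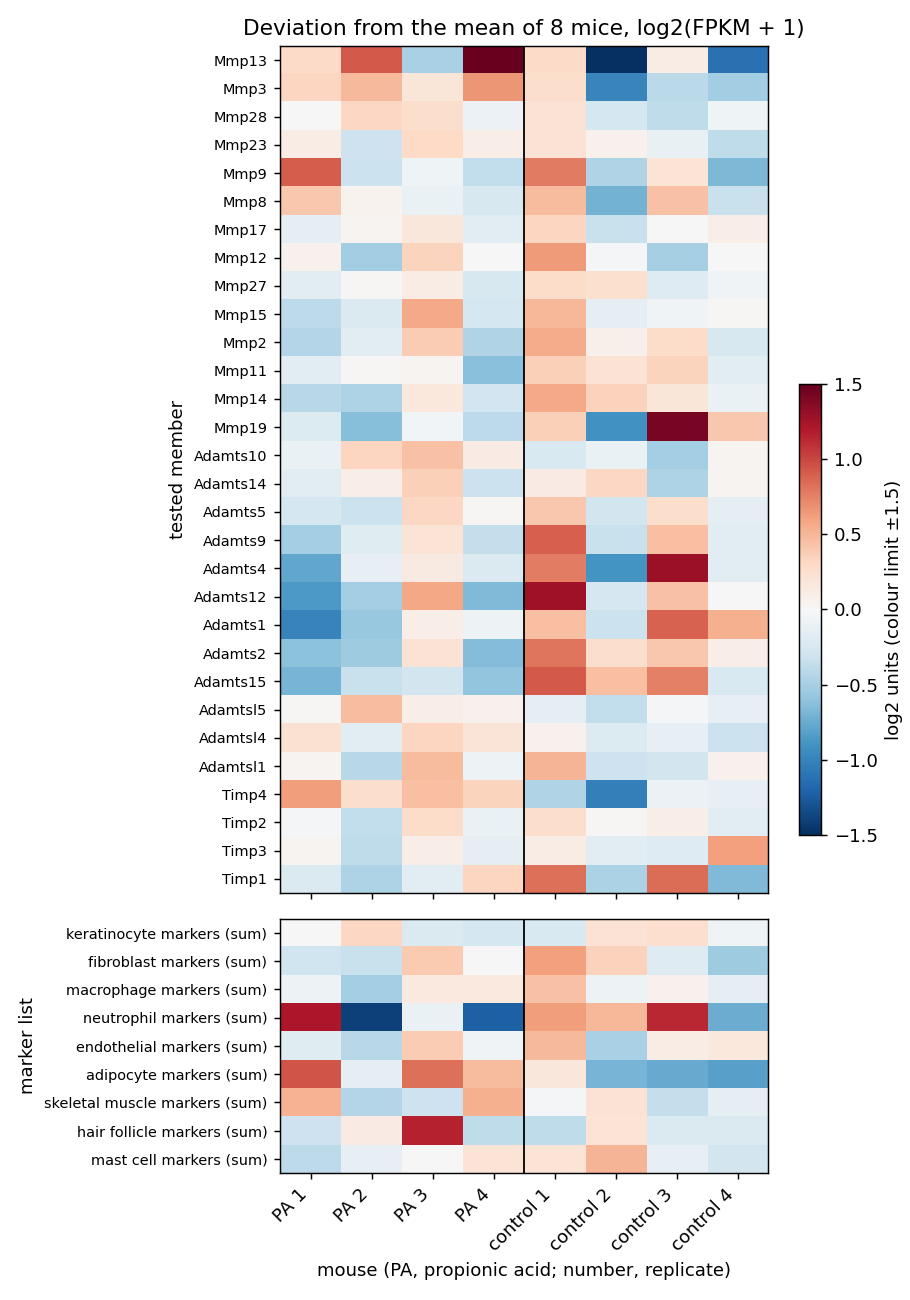
Deviation of each tested member (upper part) and of the summed FPKM of each marker list (lower part) from its mean over 8 mice, in log2 units of FPKM + 1, with the propionic acid mice left of the line and the control mice right of it. Red is above and blue below that mean. Propionic acid replicate 3 was highest in its group for 22 of the 30 members and control replicate 1 in its group for 21. This was not counted over all tested genes.

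Genes that work with these proteases were read from the same test, and 0 of them passed the adjusted threshold. In the counts of this paragraph and the next, a lower or higher mean is that of the log2 values. Of all tested genes, 48.3% were lower and 51.7% higher, 6.29% had an unadjusted p under 0.05 and 3.16% did not overlap between groups. The lists are small. In the list of plasminogen activation, the pathway that activates several MMP precursors, 5 of 7 tested genes had a lower mean and 2 had an unadjusted p under 0.05. These were the urokinase receptor Plaur, at 14.4 FPKM on average in propionic acid skin and 25.3 FPKM in control skin (log2 fold change -0.74), and the protease inhibitor Serpine2, at 13.5 and 20.3 FPKM (-0.55). Of 17 tested matrix substrates, 15 had a lower mean, with a median log2 fold change of -0.31, and 1, the laminin chain Lamb3, was past 0.05 before adjustment (log2 fold change -0.31). Among other matrix proteases, 8 of 10 had a lower mean, and Ctsk (cathepsin K, a collagen-cutting cysteine protease) had 329, 329, 388 and 296 FPKM in propionic acid mice, against 484, 600.0, 477 and 422 FPKM in control mice. These values did not overlap (log2 fold change -0.56, limma unadjusted p = 0.00372, adjusted p = 0.476). In the list of matrix uptake and clearance, which holds receptors, syndecans and secreted proteins, 6 of 7 had a lower mean, and 1, the syndecan Sdc4, was past 0.05 before adjustment (log2 fold change -0.28).

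Among activators and inducers, the proprotein convertase Pcsk6 averaged 11.9 FPKM in propionic acid skin and 8.55 FPKM in control skin with no overlap (log2 fold change 0.43, limma unadjusted p = 0.00709), and the kallikrein Klk6 had a log2 fold change of 0.47. Reck, a membrane inhibitor of MMPs, averaged 9.43 FPKM in propionic acid skin and 7.54 FPKM in control skin (log2 fold change 0.29, limma unadjusted p = 0.0441). Of 10 tested cytokines and growth factors known to induce MMP genes, the mean was higher for 3 and lower for 7. Il1a, an epidermal cytokine, averaged 14.3 FPKM in propionic acid skin and 9.05 FPKM in control skin (log2 fold change 0.60), and the growth factor Hbegf 14.6 FPKM in propionic acid skin and 31.4 FPKM in control skin with no overlap (limma unadjusted p = 0.0159). Among the 9 AP-1 subunits, 4 means were higher and 5 lower, and 0 had an unadjusted p under 0.05. None of the 8 tested membrane ADAM proteases was past 0.05 before adjustment either, and 6 of them had a lower mean.

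The 18 members under the filter were 6 MMPs, 10 ADAMTS genes and 2 ADAMTSL genes. Without the filter none of them had an unadjusted p under 0.05, and the smallest was 0.058 for Adamts3, a procollagen protease with 0.00897 to 0.0276 FPKM in propionic acid mice and 0.0339 to 0.123 FPKM in control mice. Adamts18 was highest in control replicate 1, at 0.731 FPKM, against 0.0177 to 0.114 FPKM in propionic acid mice and 0.00869 to 0.142 FPKM in the other controls. Mmp16, a membrane-type MMP, had 0.261 to 1.18 FPKM in propionic acid mice and 0.499 to 1.39 FPKM in control mice. Mmp25, a membrane-type MMP of neutrophils, reached 1.82 FPKM in propionic acid replicate 3 and stayed at 0.679 to 0.949 FPKM in the other propionic acid mice and 0.640 to 0.936 FPKM in control mice. Adamts13, the von Willebrand factor protease, Adamts16 and Adamts19 had at most 11 recovered reads in a library, too few to show a difference at this depth.

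In GRCm38 (mm10), the members with an unadjusted p under 0.05 lie as follows. Mmp3 (Entrez 17392) is at chr9:7445822-7455975 and Adamts15 (Entrez 235130) at chr9:30899155-30922452. Mmp14 (Entrez 17387) is at chr14:54431612-54445364, Timp4 (Entrez 110595) at chr6:115241892-115252205 and Adamts1 (Entrez 11504) at chr16:85793827-85803113. Adamts2 (Entrez 216725) is at chr11:50602084-50807573, Adamts10 (Entrez 224697) at chr17:33524204-33553782 and Adamtsl5 (Entrez 66548) at chr10:80339110-80348412. All are annotated as protein-coding, and each FPKM value covers the whole gene.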

How the data were processed

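RNA of lesional skin from 8 mice was measured by RNA sequencing. Per the labels' protocols, RNA was isolated with TRIzol and libraries were made from 1 µg with the VAHTS Universal V6 kit. The authors deposited 1 table of FPKM values for 25378 genes, with 1 column per sample, each taken as 1 mouse. Per the submitters' processing notes the tools were HISAT2 2.1.0, cutadapt and CASAVA and the build was mm10. How reads were counted, on which strand and with which annotation is not given in the sources used here, so reads of overlapping genes on opposite strands cannot be told apart.

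FPKM is not a count, so the design's form for normalized values was used. The 12598 genes that reached 1 FPKM in 4 libraries or more were put on the log2(FPKM + 1) scale. The model was limma 3.58.1 under R 4.3.3 (2-sided tests of the group, with a trend and robust moderation, Benjamini-Hochberg adjustment over all tested genes, threshold 0.05). For low genes this scale gives too small a fold change. Whole reads were recovered for all 25378 genes from the FPKM steps, with a tolerance of 0.01 of a read. They served for depth and for limma-voom as an alternative. The limma step was also run on simulated reads. These were drawn for each gene on its own, without shifts that many genes of a mouse can share. No result here rests on that run.

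The members and gene lists were chosen with earlier results of these data known. Named were members with an unadjusted p under 0.05, those whose groups did not overlap, the 12 with the highest mean, and 15 fixed members. For related lists, up to 4 genes with the smallest unadjusted p under 0.05 were named. Other names (Cidec, members under the filter, and the rest of the tested members) were added after their values were seen. Alternatives were another pseudocount, no filter, median-of-ratios and quantile scaling, no trend, a replicate block, limma-voom and left-out mice. Positions are from GENCODE vM21 and start regions from RefSeq (GRCm38.p6).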

Additional observations from a re-analysis of the deposited data

Results flagged for a closer look

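In 3 of 42 groups of 4 mice examined (21 named genes in both groups), 1 mouse lay far from the other 3, with a gap to its nearest neighbour above Dixon's 95% critical share of the whole range of the group. Chance gives about 1 in 20 such groups. Adamts2 in propionic acid replicate 3 had 32.6 FPKM, against 19.0 FPKM in the next mouse of that group. Adamtsl5 in propionic acid replicate 2 had 16.05 FPKM, against 12.3 FPKM in the next mouse. Mmp9 in propionic acid replicate 1 had 6.56 FPKM, against 2.85 FPKM in the next mouse.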

How the results depend on the processing

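Of the 20 named members in the test, 308 of the 320 values under 16 alternatives kept their direction and did not pass the adjusted threshold, and 12 turned direction. Without control replicates 1 and 3 together, Adamts4 (0.292), Adamts5 (0.141), Timp1 (0.435) and Timp2 (0.012) turned from lower to higher on the log2 scale. The cause was not tested. With 1 mouse left out at a time, the log2 fold change ranged from -0.235 to 0.144 for Mmp12, from -0.161 to 0.232 for Mmp8 and from -0.218 to 0.345 for Mmp9. Mmp12 turned direction when propionic acid replicate 2 or control replicate 1 was left out. Mmp8 and Mmp9 turned when propionic acid replicate 1 was left out, and likewise for control replicates 2 and 4, each alone. The number of members with an unadjusted p under 0.05 ranged from 5 to 11, while the share of all tested genes ranged from 3.51% to 9.83%, and the number of all genes past an adjusted p of 0.05 from 0 to 2 (Ucp3 without control replicate 2, Nr1d2 and Cbln1 without control replicate 3; none is a member). With the replicate block the number of members was 8, of which 2 were higher and 6 lower, with Mmp11 and Mmp19 in place of Adamts10 and Adamtsl5; over all genes it was 5.56%, with 431 higher and 269 lower. The labels do not say that a number pairs mice: deviations of same-numbered mice correlated at -0.319 to 0.2 over the tested genes, and 1 of the 8 libraries was most like the one of its own number. With 4 mice a group the intervals are wide, and members listed at a few reads cannot show a difference at this depth.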
